A study of Mus musculus with 8 samples.

Results

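The 40 genes described here encode factors of pre-mRNA splicing: 10 SR proteins, 10 proteins related to them or carrying stretches rich in arginine and serine, 3 CLK kinases, 2 DEAD-box helicases, 10 hnRNPs and 5 subunits of the U1 and U2 particles and of the U2AF factor. They were taken as a list of gene names. All 40 were found among the 53647 gene identifiers of the count tables, and all 40 were among the 16352 genes with enough counts to be tested. RNA was sequenced from mouse bone marrow cells sorted as Lin- CD127+, that is without markers of mature lineages and with the interleukin 7 receptor alpha chain. Of the 8 libraries, 4 were labelled as Trerf1 knockout marrow (KO1 to KO4, genotype spelled Tref1 -/- in the labels) and 4 as wild-type marrow (WT1 to WT4, Trerf1 +/+). The stated purpose was to compare knockout with wild type. Trerf1 encodes a zinc finger transcription factor. Which exons the allele lacks, and the age, sex and strain of the mice, are not given in the sources used here. Nothing in the labels says that each numbered library is a mouse of its own. The p-values below therefore describe how these libraries vary, which may be technical.

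Introns are cut out of pre-mRNA by the spliceosome. The U1 particle pairs with the start of an intron, while the U2AF dimer and the U2 particle recognise its end. SR proteins mostly promote the use of nearby exons and hnRNPs often oppose it. Many genes of both families limit their own protein by making transcripts that keep an intron in the nucleus, or that carry an early stop and are destroyed by nonsense-mediated decay. CLK kinases phosphorylate SR proteins and release them from nuclear speckles.

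The annotation (GENCODE M21, GRCm38) lists transcripts typed as retained intron or nonsense-mediated decay for most of the 40 genes. Such types do not show where a transcript is kept or whether it limits the protein. At least 1 retained-intron transcript was annotated for 34 of the 40 (85%), against 58.4% of the 12660 other protein-coding genes tested. A transcript marked for nonsense-mediated decay was annotated for 34 of the 40 (85%), against 28.3% of the others, and 31 had both kinds. The 40 genes also had more annotated transcripts, with a median of 10 against 5, and the shares were not compared with those of genes with equal transcript number. In 21 of the genes an intron removed in a protein-coding transcript lay whole inside an exon of a retained-intron transcript, which gave 51 introns. Of these, 50 (98.0%) began with GT, against 98.2% of 7432 such introns in other genes. GTAAGT, the 6 letters that pair best with U1 at these positions, began 9 of the 51 (17.6%), against 9.38% in other genes, read on the gene's own strand only and with overlapping introns counted each. The starts of 6 of the 51 introns are shown as examples that differ in how closely they match GTAAGT. Each lies inside an exon of an annotated retained-intron transcript, and whether such RNA stays in the nucleus was not tested. Each line has 12 bases of exon and 12 of intron, 5′ to 3′ on the gene's strand, with the first 6 intron bases in capitals. The introns lie at chr1:58420212-58421082 (minus strand) in Clk1, chr11:51275865-51276117 (plus) in Clk4, chr17:29038625-29040774 (plus) in Srsf3, chr17:80204388-80205261 (minus) in Srsf7, chr16:22249134-22250864 (minus) in Tra2b and chr7:5068797-5069443 (plus) in U2af2, all in GRCm38.
Clk1: cattcacacgggGTATGAgtgcct
Clk4: aattctaaaatgGTAAGTtaaaga
Srsf3: acctcggcgcagGTACTTgagaga
Srsf7: aagaagaagcagGTATTTaattaa
Tra2b: gagacccacttaGTAAGTaacttc
U2af2: cgttgaaggcaaGTAAGGtccatt
Clk4 and Tra2b carry the full GTAAGT and the other 4 do not. The deposited values are per gene, so cutting at these sites was not measured directly.

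Library totals ran from 32821991 to 66515540 counts in KO and from 31109744 to 73414626 in WT. Trerf1 itself gave 13.4, 12.8, 12.1 and 22.1 CPM (counts scaled to library size with TMM factors) in KO1 to KO4, against 29.0, 32.1, 27.1 and 22.3 CPM in WT1 to WT4, so the library labelled KO4 stood at the level of WT4 and its label may be wrong. Every KO against WT value over 8 libraries takes that label as given, and each comparison is therefore also given without KO4 and WT4. Xist, the RNA made from the inactive X chromosome of female cells, was at 447, 0.062, 498 and 768 CPM in KO1 to KO4, against 531, 0.061, 0.61 and 563 CPM in WT1 to WT4. By this marker the libraries differed in sex within both groups. With Xist as covariate 0 genes were called between KO and WT (edgeR), with 491 at an unadjusted p under 0.05. The libraries also differed in the share of counts in genes that GENCODE types TEC, mostly unspliced transcripts that still await experimental support. This share is an indirect measure of unspliced RNA, and reads within introns were not measured. This TEC share was 0.117%, 0.119%, 0.126% and 0.308% in KO1 to KO4, against 0.189%, 0.208%, 0.269% and 0.148% in WT1 to WT4. KO4 was the highest of all 8 and KO1 to KO3 were the lowest. The group means, 0.167% ± 0.0936 in KO and 0.203% ± 0.0503 in WT (SD, n = 4 each), gave a two-sided exact permutation p of 0.543, where 0.0286 is the smallest that 4 against 4 allows. The summed level of 8 early lymphoid markers was 6502 to 9982 CPM in KO and 6370 to 7956 CPM in WT. Of their estimates 6 were higher in KO and 2 lower, with Cd79a averaging 119 CPM in KO and 91.6 CPM in WT and Ly6d 4220 and 3481 CPM. The summed level of 8 erythroid markers was 25.6 to 164 CPM in KO and 28.4 to 376 CPM in WT. All 8 estimates were lower in KO (median log2 fold change -0.96), where 51.7% of all genes were higher. None of the 8 had an unadjusted p under 0.05 (edgeR). Alas2 averaged 2.77 CPM in KO and 5.94 CPM in WT, and Epor 1.12 and 2.66 CPM. No marker of either list was at 0 in all libraries. The sums overlapped between the groups for neutrophil markers (148 to 299.5 CPM in KO, 169.7 to 264 CPM in WT), macrophage markers (192 to 256 CPM in KO, 128 to 284 CPM in WT) and T cell markers (175 to 380.0 CPM in KO, 187 to 285 CPM in WT). They also overlapped for plasma cell markers (859.5 to 1022 CPM in KO, 694 to 1252 CPM in WT) and for stromal and endothelial markers (448 to 483 CPM in KO, 390.2 to 521 CPM in WT). Pecam1 alone averaged 385 CPM in KO and 364 CPM in WT, whereas Cxcl12 of the same list averaged 0.416 and 0.661 CPM. Adgre1 of the macrophage list averaged 0.529 and 0.501 CPM, and Csf1r of that list 54.9 and 36.1 CPM. Prdm1 of the plasma cell list averaged 0.435 and 0.833 CPM, and Jchain of that list 13.1 and 6.46 CPM. Of the 5 plasma cell estimates 4 were higher in KO and 1 lower. In the T cell list, with 4 higher and 2 lower, Cd3g averaged 10.2 and 5.78 CPM and Cd3d 7.33 and 4.35 CPM. Cd79a, Csf1r, Cd3g and Jchain had an unadjusted p under 0.05 (edgeR), as 1.97% of all genes did, and none was called. A sum carried by few genes does not give the amount of RNA from that cell type. In such bulk samples fewer cells of a type and less RNA per cell cannot be told apart.

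Splicing factor transcripts were abundant in both groups. Together the 40 genes took 1.87% ± 0.120 of counts in KO and 1.87% ± 0.0590 in WT (SD, n = 4 each). Per length, on the authors' TPM scale, the most abundant were Hnrnpk, Hnrnpa2b1 and Ddx5. Hnrnpk, which binds C-rich RNA, averaged 1649.6 ± 199 TPM in KO and 1634 ± 61.6 TPM in WT (SD, n = 4 each, as for the TPM values that follow). Hnrnpa2b1, another RNA-binding hnRNP, averaged 1584 ± 111 TPM in KO and 1680.3 ± 216 TPM in WT. Ddx5, an RNA helicase, averaged 1474 ± 87.8 TPM in KO and 1522 ± 156 TPM in WT. These 3 levels lay within their spread of each other. At the other end, Srsf9, an SR protein, averaged 13.7 ± 1.13 TPM in KO and 13.4 ± 1.44 TPM in WT. The kinase gene Clk2 averaged 9.46 ± 2.87 TPM in KO and 8.44 ± 0.919 TPM in WT. Every library held at least 362 counts of each of the 40 genes, the lowest being for Srsf9. The SD of log2 CPM over all 8 libraries had a median of 0.16 among the 40 genes, from 0.063 for Sf3b2 to 0.38 for Luc7l2. Among 8289 other protein-coding genes in the same CPM range the median was 0.17. In the plot of CPM by library, Luc7l2 and U2af1 are the most spread.

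**Figure D1:**
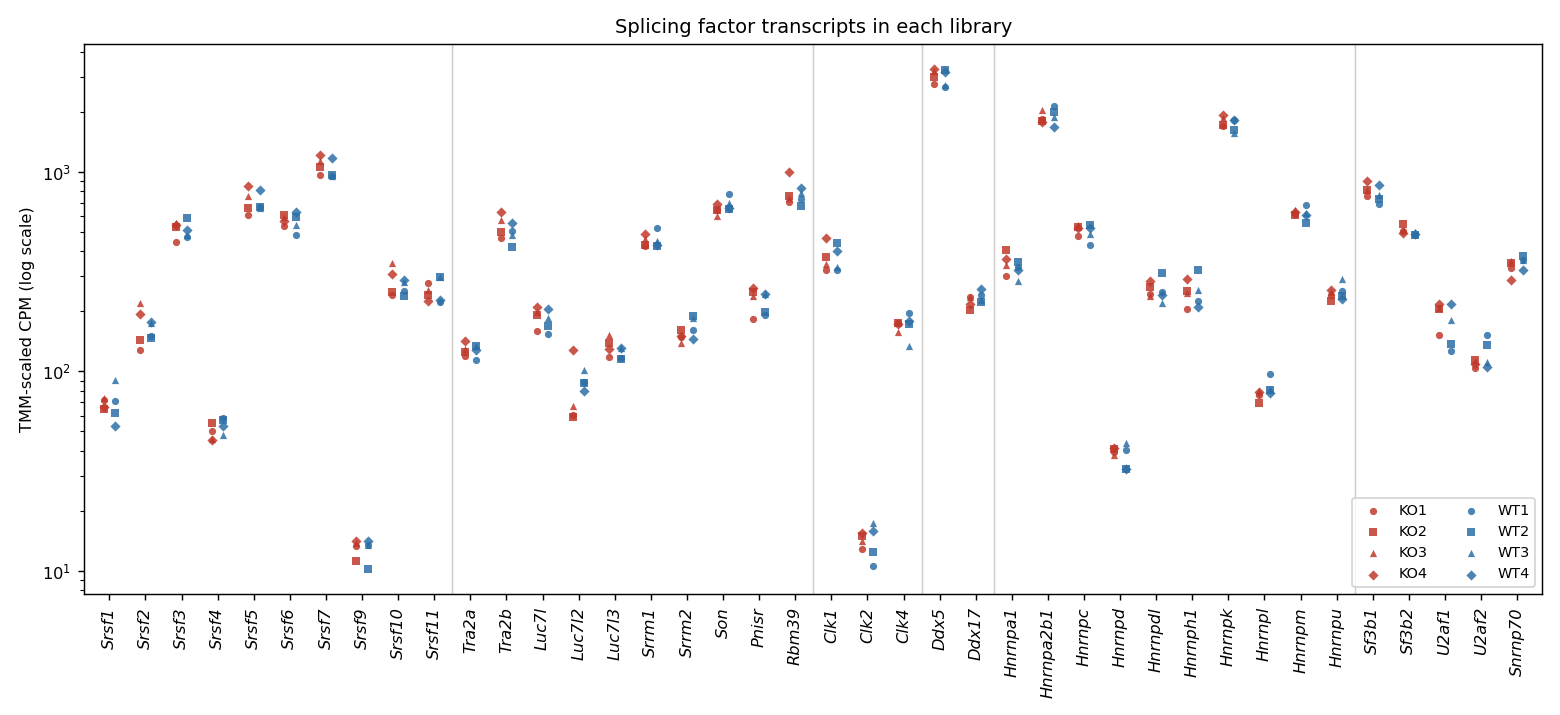
CPM (TMM-scaled, log axis) of the 40 genes in each library, KO in red left of WT in blue, with the marker shape giving the library number and grey lines parting the 6 role groups. KO and WT points overlap for all 40 genes, and the KO4 diamond of Luc7l2 at 127 CPM stands above the other 7 libraries.

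No splicing gene of the 40 differed between knockout and wild type past an adjusted p of 0.05, nor did any of the 16352 genes. The share called was 0% (quasi-likelihood test of edgeR, Benjamini-Hochberg adjusted over all genes). Trerf1 had a log2 fold change of -0.87 and an adjusted p of 0.999, so this test did not call the targeted gene either. Its CPM gave an exact permutation p of 0.0286, the smallest possible. Estimates were higher in KO for 25 of the 40 and lower for 15, with a median log2 fold change of 0.022, against 51.7% higher and a median of 0.0075 over all genes tested. With library size alone as scaling, 19 of the 40 were higher, and without KO4 18 were, against 50.6% of all genes. The estimates ran from -0.20 for U2af2 to 0.24 for U2af1. None of the 40 had an unadjusted p under 0.05, where 1.97% of all genes did. Those 322 genes became 978 without KO4, 1016 without WT4, 535 without KO1 and 168 without WT2. Without WT4 the 40 held 3 at an unadjusted p under 0.05, which were Srrm2, U2af1 and U2af2, and without KO4 they held 1, Luc7l2. None of these was called. The 95% interval of every one of the 40 lay inside a 2-fold change in either direction, as it did for 71.4% of all genes. The widest limits were -0.68 for Luc7l2 and 0.63 for U2af1. In none of the 40 did the KO and WT values part without overlap, which 1.28% of all genes did. The adjusted p of each of the 40 was 0.999.

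**Figure D2:**
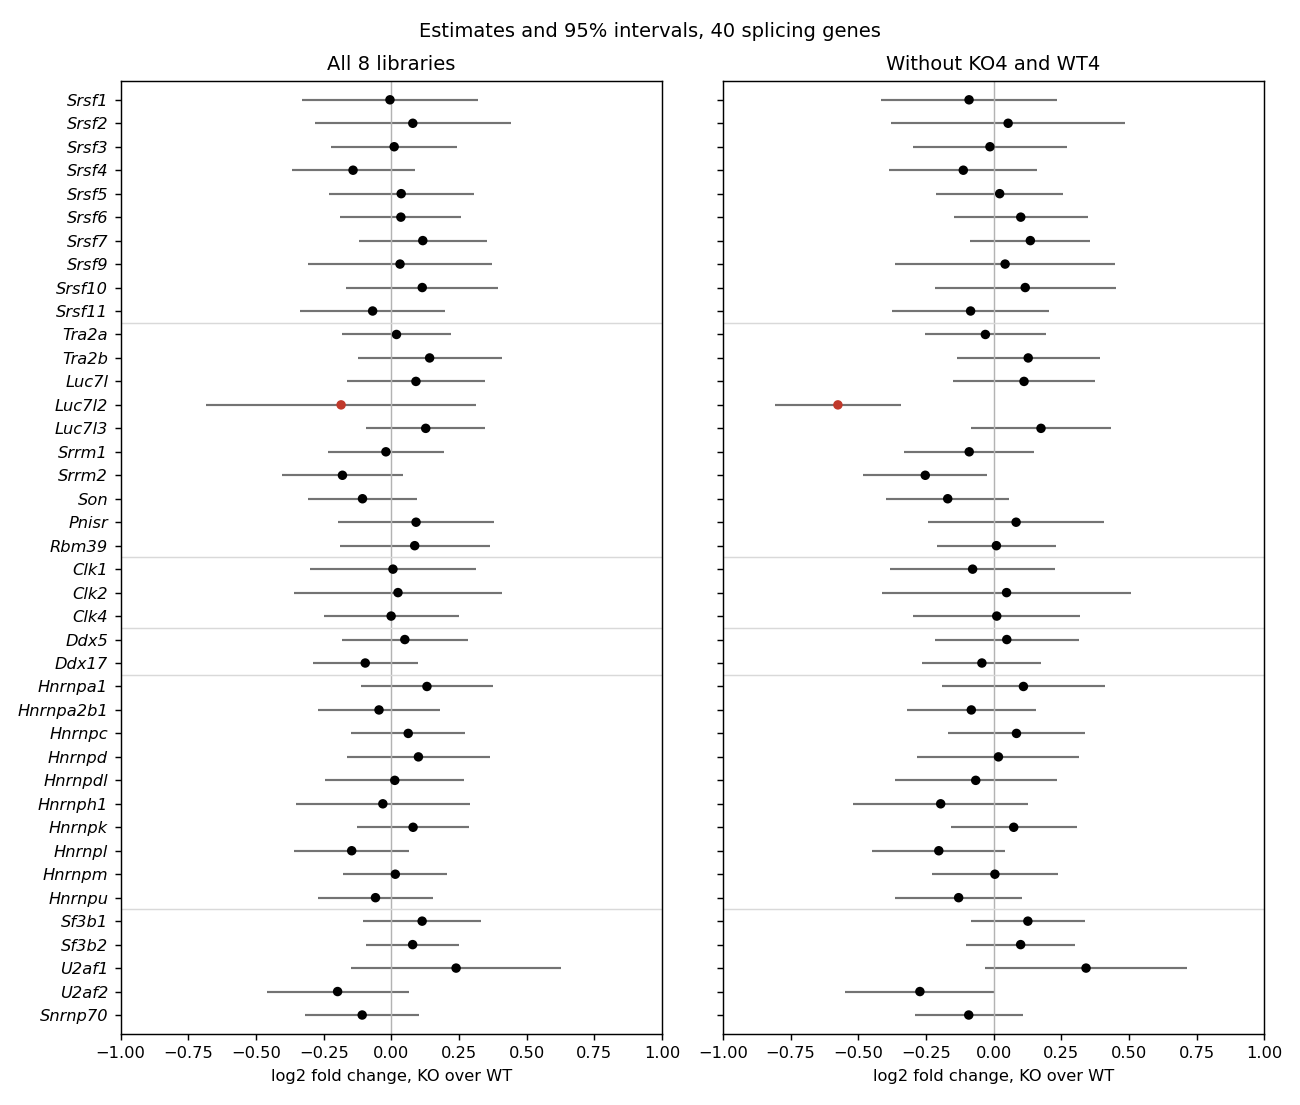
Log2 fold change of KO over WT with its 95% interval for the 40 genes, with all 8 libraries on the left and without KO4 and WT4 on the right, genes grouped by role. Luc7l2 (red) is at -0.19 with all libraries and at -0.58 without KO4 and WT4, where its interval of -0.81 to -0.34 does not reach 0.

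Among the 10 SR proteins, 7 estimates were higher in KO and 3 lower (median 0.033). Srsf7, an SR protein with a zinc knuckle, had the highest CPM of the group, 968, 1054, 1138 and 1219 CPM in KO1 to KO4, against 954, 964, 956 and 1166 CPM in WT1 to WT4. KO1 lay just above the 3 lower WT libraries, and WT4 lay among the higher KO libraries. Its log2 fold change was 0.12 (95% interval -0.12 to 0.35). Srsf4, a large SR protein, gave 50, 55.4, 46.0 and 45.3 CPM in KO1 to KO4, against 58.5, 56.8, 48.2 and 53.4 CPM in WT1 to WT4. KO1 and KO2 were inside the WT range and KO3 and KO4 below it, at a log2 fold change of -0.14 (95% interval -0.37 to 0.086). Of the exonic bases of Srsf4, 43.0% are shared with the opposite-strand gene Gm12992, and the kit does not mark strand. The share of Srsf4 in the counts was 0.338 times its share in the RSEM estimates, the lowest of the 40. Srsf5, another SR protein that promotes exon use, gave 611, 658, 752 and 847 CPM in KO1 to KO4, against 666, 667, 656 and 809 CPM in WT1 to WT4. The high libraries were KO3, KO4 and WT4, with a log2 fold change of 0.036 (95% interval -0.23 to 0.30). The other 7 genes ran from -0.069 for Srsf11 to 0.11 for Srsf10.

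The 10 SR-related proteins had 6 higher and 4 lower estimates (median 0.052). Srrm2, a large scaffold protein of nuclear speckles, gave 149, 161, 139 and 151 CPM in KO1 to KO4, against 161, 188, 185 and 146 CPM in WT1 to WT4. WT1 to WT3 were above every KO library, WT1 by less than 1 CPM, whereas WT4 was within the KO range. The log2 fold change was -0.18 (95% interval -0.40 to 0.041). Luc7l3, a U1-associated protein, gave 118, 139, 153 and 130.1 CPM in KO1 to KO4, against 117, 115, 130.4 and 132 CPM in WT1 to WT4. KO2 and KO3 stood above all WT libraries and KO1 did not, at 0.13 (95% interval -0.092 to 0.35) on the log2 scale. Rbm39, a U2AF-like factor with several RNA-binding domains, had the highest CPM of this group, 707, 756, 741 and 1003 CPM in KO1 to KO4, against 735, 673, 780.2 and 834 CPM in WT1 to WT4. KO4 stood apart and the other 7 libraries overlapped, with a log2 fold change of 0.086 (95% interval -0.19 to 0.36). Tra2b, a sequence-specific activator of exon use, gave 468, 499, 575 and 627 CPM in KO1 to KO4, against 506, 419.7, 485 and 556 CPM in WT1 to WT4. Its values interleaved between the groups, at 0.14 (95% interval -0.12 to 0.41) on the log2 scale. Pnisr, a protein rich in arginine and serine, gave 183, 250.1, 239 and 262 CPM in KO1 to KO4, against 192, 198, 245 and 243 CPM in WT1 to WT4. KO1 was the lowest of all 8 libraries and KO4 the highest, and the log2 fold change was 0.091 (95% interval -0.20 to 0.38).

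The estimates of the kinases and helicases lay between -0.097 and 0.050. Clk1, a kinase of SR proteins, gave 321, 376, 346 and 464 CPM in KO1 to KO4, against 324, 442, 334 and 401 CPM in WT1 to WT4. Both groups held low and high libraries, and the log2 fold change was 0.006 (95% interval -0.30 to 0.31). Clk2 gave 12.8, 14.9, 14.1 and 15.5 CPM in KO1 to KO4, against 10.6, 12.4, 17.5 and 15.9 CPM in WT1 to WT4, with a WT range that enclosed all KO libraries. Its log2 fold change was 0.024 (95% interval -0.36 to 0.41). For Clk4 the estimate was -0.00096 (95% interval -0.25 to 0.25). Ddx5 gave 2763, 2975, 3186 and 3276 CPM in KO1 to KO4, against 2663, 3249.5, 2711 and 3165 CPM in WT1 to WT4. Its groups overlapped throughout, at a log2 fold change of 0.050 (95% interval -0.18 to 0.28). Ddx17, the close relative of Ddx5, gave 236, 203, 235 and 216 CPM in KO1 to KO4, against 241, 224, 229 and 258 CPM in WT1 to WT4. KO2 and KO4 lay below the WT libraries and KO1 and KO3 among them, and the log2 fold change was -0.10 (95% interval -0.29 to 0.10).

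The 10 hnRNP genes had 6 higher and 4 lower estimates (median 0.014). Hnrnpl, which binds CA repeats, gave 75.9, 69.8, 79.4 and 78.8 CPM in KO1 to KO4, against 97.3, 80.4, 81.2 and 77.7 CPM in WT1 to WT4. WT1 was the highest and WT4 lay within the KO range, at a log2 fold change of -0.15 (95% interval -0.36 to 0.067). Hnrnpa1, an antagonist of SR proteins, gave 300.1, 404, 342 and 367 CPM in KO1 to KO4, against 332, 353, 284 and 322 CPM in WT1 to WT4. KO2 and KO4 lay above all WT libraries and KO1 below 3 of them, with a log2 fold change of 0.13 (95% interval -0.11 to 0.38). The share of Hnrnpa1 in the counts was 0.649 times its share in the RSEM estimates. Hnrnpa2b1 had the highest CPM of the group, 1832, 1804, 2049 and 1772 CPM in KO1 to KO4, against 2146, 1994, 1876 and 1682 CPM in WT1 to WT4, with overlapping groups and a log2 fold change of -0.046 (95% interval -0.27 to 0.18). Hnrnph1, which binds G-rich RNA, gave 204, 252, 246 and 289.5 CPM in KO1 to KO4, against 226, 320.5, 257 and 210.2 CPM in WT1 to WT4. WT2 was the highest of all 8 libraries and KO1 the lowest, at a log2 fold change of -0.032 (95% interval -0.35 to 0.29). Hnrnpu, a nuclear matrix and RNA-binding protein, gave 240.3, 226, 250.2 and 256 CPM in KO1 to KO4, against 253, 239, 291 and 230.2 CPM in WT1 to WT4. WT3 stood above the other libraries, and the log2 fold change was -0.059 (95% interval -0.27 to 0.15). The other 5 genes ran from 0.013 for Hnrnpdl to 0.10 for Hnrnpd.

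With 8 libraries the core subunits held both ends of the range. U2af1 (chromosome 17, 31866055 to 31877866, minus strand, in the count tables' GRCm39 coordinates), the U2AF subunit that reads the last bases of an intron, gave 152, 204, 207 and 217 CPM in KO1 to KO4, against 127, 137, 181 and 217 CPM in WT1 to WT4. WT1 and WT2 were the lowest and KO1 came next, while WT4 was at the level of KO4. The log2 fold change was 0.24 (95% interval -0.15 to 0.63), with 0.12 without WT1, 0.15 without WT2 and 0.40 without WT4. The erythroid marker sum ran the other way over the same libraries, at 164, 85.3, 25.6 and 33.9 CPM in KO1 to KO4, against 376, 160, 38.6 and 28.4 CPM in WT1 to WT4. U2af2 (chromosome 7, 5065142 to 5082937, plus strand), the subunit that binds the polypyrimidine tract, gave 104, 114, 113 and 109 CPM in KO1 to KO4, against 153, 136, 111 and 106 CPM in WT1 to WT4. WT1 and WT2 were above all other libraries, whereas WT3 and WT4 lay in the KO range. The log2 fold change was -0.20 (95% interval -0.46 to 0.064), and -0.10 without WT1, so the estimates of the 2 partners of the dimer had opposite signs and neither passed the test. In U2af2, WT1 and WT2, the libraries with the higher erythroid sums in WT, were again those that stood apart, but KO1, with a sum of 164 CPM, did not. The part of erythroid RNA in either result was not tested in this comparison. Snrnp70, a protein specific to the U1 particle, gave 329, 348, 355 and 288 CPM in KO1 to KO4, against 360.0, 380.3, 359.6 and 323 CPM in WT1 to WT4. KO4 was the lowest, and WT4 was below KO1 to KO3, with a log2 fold change of -0.11 (95% interval -0.32 to 0.10). Sf3b1, the U2 subunit that contacts the branch site, had the highest CPM of the group, 759, 812, 811 and 903 CPM in KO1 to KO4, against 687, 729, 765 and 856 CPM in WT1 to WT4. WT1 and WT2 were the lowest and WT4 exceeded 3 KO libraries, at 0.11 (95% interval -0.10 to 0.33) on the log2 scale. Sf3b2, its partner in U2, had a log2 fold change of 0.078 (95% interval -0.094 to 0.25) and the smallest spread of all 40 genes, 507, 549.7, 512 and 491 CPM in KO1 to KO4, against 481, 482, 500.4 and 488 CPM in WT1 to WT4.

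Without KO4 and WT4, the estimate farthest from 0 among the 40 belonged to Luc7l2. It encodes a U1-associated protein that influences which intron starts are used (chromosome 6, 38528269 to 38586405, plus strand, in the count tables' GRCm39 coordinates). It gave 60.7, 59.0, 66.9 and 127 CPM in KO1 to KO4, against 88.2, 87.8, 102 and 79.9 CPM in WT1 to WT4. KO1 to KO3 were lower than every WT library, and KO4 was higher than every WT library. With all 8 libraries the log2 fold change was -0.19 (95% interval -0.68 to 0.31). Among the 6 libraries KO1 to KO3 and WT1 to WT3 it was -0.58 (95% interval -0.81 to -0.34), with an unadjusted p of 0.000351 and an adjusted p of 0.136 by the same edgeR test, so the call was not made. DESeq2 on those 6 libraries gave -0.57 with an adjusted p of 0.00631, which did pass. With the TEC share as covariate the estimate was -0.26 (edgeR adjusted p 0.827). No exonic base of Luc7l2 is shared with another annotated gene.

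Of the 16300 genes tested in the 6 libraries, 12 were called, all lower in KO (0.0736%), and none was among the 40. Trerf1 was 1 of the 12, at a log2 fold change of -1.205 and an adjusted p of 0.0473 (edgeR). An unadjusted p under 0.05 was found for 2 of the 40, Luc7l2 and Srrm2, against 8.75% of all genes. Srrm2 had a log2 fold change of -0.25 (95% interval -0.48 to -0.023) and an adjusted p of 0.527. The KO and WT values of the 6 libraries did not overlap for 7 of the 40, against 15.5% of all genes. Higher in KO without overlap were Srsf7 and Sf3b2. Lower in KO without overlap were Luc7l2, Srrm2, Son, a speckle protein, Hnrnpl and Snrnp70. Apart from Luc7l2 their estimates ran from -0.25 for Srrm2 to 0.14 for Srsf7, and 7 of 40 is a share close to that of all genes. U2af1 reached 0.34 (95% interval -0.030 to 0.71) and U2af2 -0.27 (95% interval -0.55 to 0.0037), with adjusted p of 0.5852 and 0.575 (edgeR). Over the 40 genes 22 estimates were higher in KO, with a median of 0.011, against 51.4% of all genes. With library size alone 13 were higher. All 40 intervals again lay inside a 2-fold change in either direction, as did 66.4% of those of all genes.

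Level was next read against the TEC share, with the group held as a covariate. Luc7l2 was the 1 gene of the 40 past an adjusted p of 0.05, rising by 0.50 ± 0.067 (SE) on the log2 scale for each 0.1 percentage point of TEC share (95% interval 0.35 to 0.65, adjusted p 0.0149, edgeR's quasi-likelihood test, 8 libraries). Of 15530 genes not typed TEC, 28 were called (0.18%), all of them rising. Among the 12700 protein-coding genes of this fit 7 were called, of which Luc7l2 had the second smallest p. The adjustment ran over all 16352 genes tested, including 822 typed TEC, whose own counts make up the share. Of those 822, 61 were called, and calls among them loosen the cutoff for the other genes. In a fit of protein-coding genes alone Luc7l2 was not called. Across the 8 libraries the order of Luc7l2 followed that of the TEC share closely: KO4 was highest in both, WT3 next, and KO1 to KO3 lowest. Kcnq1ot1, a long noncoding RNA kept in the nucleus and the other gene called among the lists examined, gave 31.3, 29.3, 27.8 and 116 CPM in KO1 to KO4, against 55.5, 73.5, 106 and 37.9 CPM in WT1 to WT4. Its slope was 1.09 ± 0.073 (SE; edgeR adjusted p 0.000882). The Luc7l2 call rested on KO4 in large part: without it the slope was 0.29 with an adjusted p of 0.674, and without both KO4 and WT4 it was 0.30 with an adjusted p of 0.789 (edgeR). Leaving out KO1, KO2 or KO3 gave adjusted p of 0.0525, 0.0544 and 0.0575.

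**Figure D3:**
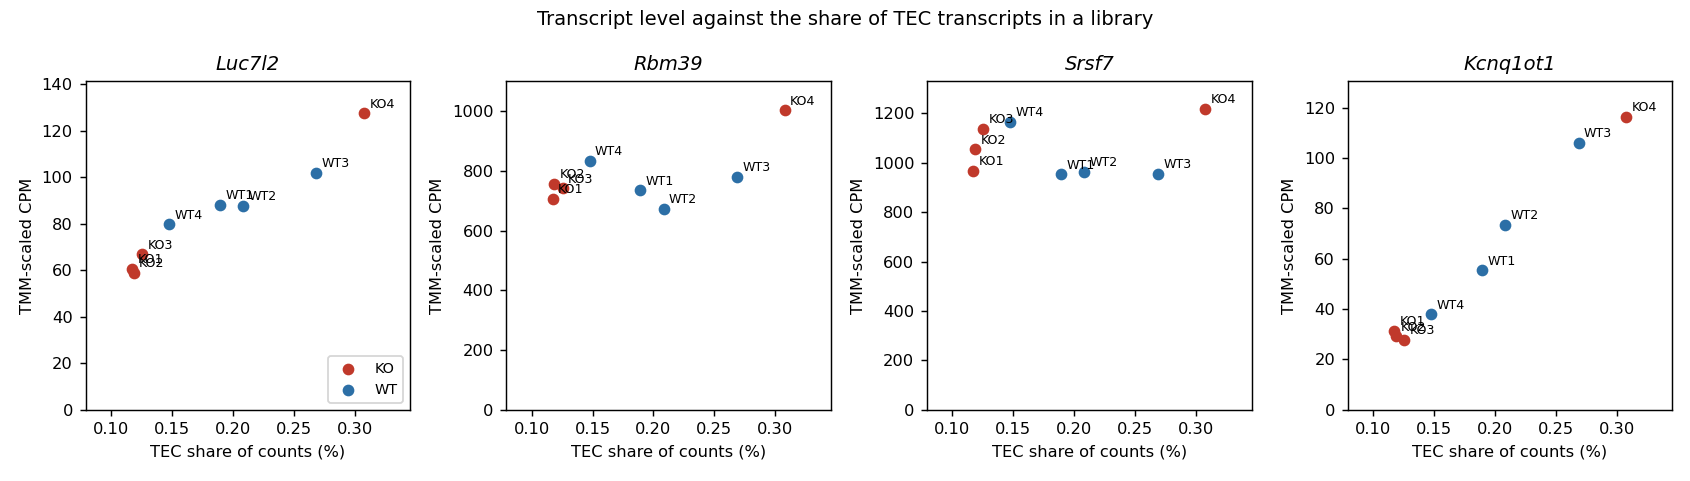
CPM (TMM-scaled, axis from 0) against the TEC share of counts in percent, 1 point per library, KO in red and WT in blue, for Luc7l2, Rbm39, Srsf7 and the nuclear noncoding RNA Kcnq1ot1. Luc7l2 and Kcnq1ot1 climb with the share over both groups, whereas Rbm39 is high in KO4 alone and Srsf7 shows no such climb.

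The other 39 genes did not pass. Over the 40 the slope was above 0 for 29 and below 0 for 11, with a median of 0.053, against 44.8% above 0 among all genes not typed TEC. Without KO4 it was above 0 for 18 of the 40, with a median of -0.018, against 50.4% of those genes. With the replicate number as a block it was above 0 for 22. An unadjusted p under 0.05 was found for Luc7l2 and for no other of the 40, where 6.07% of genes had one. Next after Luc7l2 came Hnrnph1 at 0.19 (95% interval -0.037 to 0.41) and Rbm39 at 0.17 (95% interval -0.011 to 0.35), with adjusted p of 0.725 and 0.668 (edgeR). Rbm39 was at 1003 CPM in KO4 and at 673 to 834 CPM in the other 7 libraries, and without KO4 its slope was -0.067. Clk1, a kinase gene well known for introns kept in the nucleus, had a slope of 0.14 (95% interval -0.082 to 0.36). Without KO4 it was -0.16. Hnrnpu stood at 0.11 (95% interval -0.049 to 0.26) and Srsf5 at 0.090 (95% interval -0.11 to 0.29). At the other end, Srsf4 had -0.10 (95% interval -0.27 to 0.071), Snrnp70 -0.080 (95% interval -0.25 to 0.087) and Ddx17 -0.053 (95% interval -0.21 to 0.10). Luc7l and Luc7l3, the relatives of Luc7l2, had slopes of 0.066 (95% interval -0.13 to 0.26) and -0.023 (95% interval -0.20 to 0.15), and the upper limits of both were under the lower limit of Luc7l2, although the difference between these genes was not tested. The interval of each of the 40 genes lay inside a 2-fold change for 0.1 percentage point, as did that of 13294 of the 16352 genes tested.

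**Figure D4:**
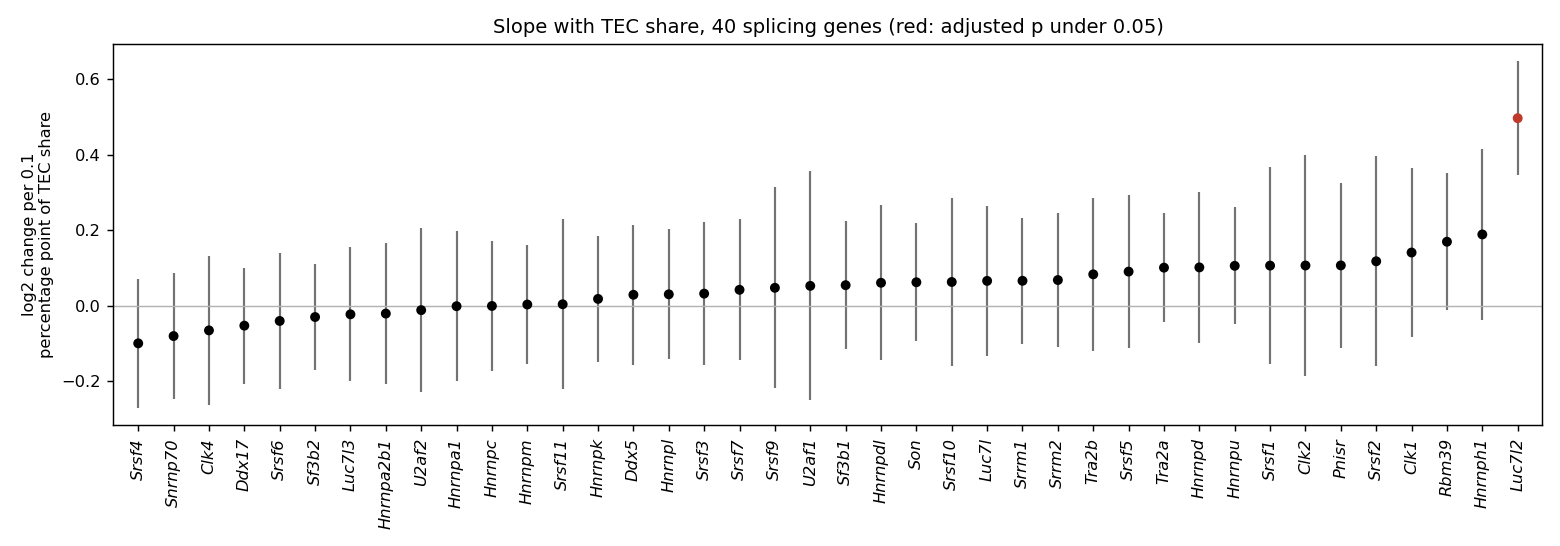
Change in log2 level for each 0.1 percentage point of TEC share, with its 95% interval, for the 40 genes in rising order. Luc7l2 (red) at 0.50 is apart from the other 39, which run from -0.10 for Srsf4 to 0.19 for Hnrnph1.

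The mix of isoforms was read from the mean transcript length that RSEM weights by abundance, in bases per gene and library. Of 10419 genes with a usable length, 1 was called between KO and WT (0.0096%), and it was not among the 40 (limma with Benjamini-Hochberg adjustment). Among the 40, 23 estimates were longer in KO, against 57.2% of all genes, and 2 had an unadjusted p under 0.05, against 4.67% of all genes. KO and WT lengths did not overlap for 1 of the 40, Srsf1, where 2.54% of all genes had no overlap. Srsf1, the founding SR protein, had a mean length of 4071, 3641, 3994 and 4002 bases in KO1 to KO4, against 3589.5, 3622, 3421 and 3184 bases in WT1 to WT4. Every KO library was longer than every WT library, at a log2 difference of 0.19 (95% interval 0.061 to 0.31) with an adjusted p of 0.993 (limma). The level of Srsf1 showed no such parting, at 72.0, 64.5, 73.6 and 66.0 CPM in KO1 to KO4, against 71.4, 61.5, 90.8 and 53.5 CPM in WT1 to WT4. Srsf4 had 2168, 2176, 2180.3 and 2137 bases in KO1 to KO4, against 2111, 2141, 2109 and 2123 bases in WT1 to WT4. KO1 to KO3 were above all WT libraries and KO4 was below WT2, a log2 difference of 0.030 (95% interval 0.004 to 0.056). Sf3b2 had 2286, 2288, 2406 and 2466 bases in KO1 to KO4, against 2176, 2237, 2285 and 2319.7 bases in WT1 to WT4. KO3 and KO4 were above all WT libraries and KO1 and KO2 were below WT4, a log2 difference of 0.067 (95% interval -0.010 to 0.14). Pnisr had 1982, 1949, 2245 and 2186 bases in KO1 to KO4, against 1833, 1863, 1919 and 2062 bases in WT1 to WT4. Here too KO3 and KO4 were above all WT libraries and KO1 and KO2 were below WT4, a log2 difference of 0.12 (95% interval -0.018 to 0.26). Without KO4 and WT4, 22 of the 40 were longer in KO, against 55.8% of all genes. An unadjusted p under 0.05 was then found for 5 of the 40, against 6.74% of all genes (limma). None of the 5 was called. Their log2 differences were 0.19 for Luc7l2, 0.14 for Srsf1, 0.037 for Srsf4, -0.14 for Tra2a and -0.047 for Hnrnpl.

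**Figure D5:**
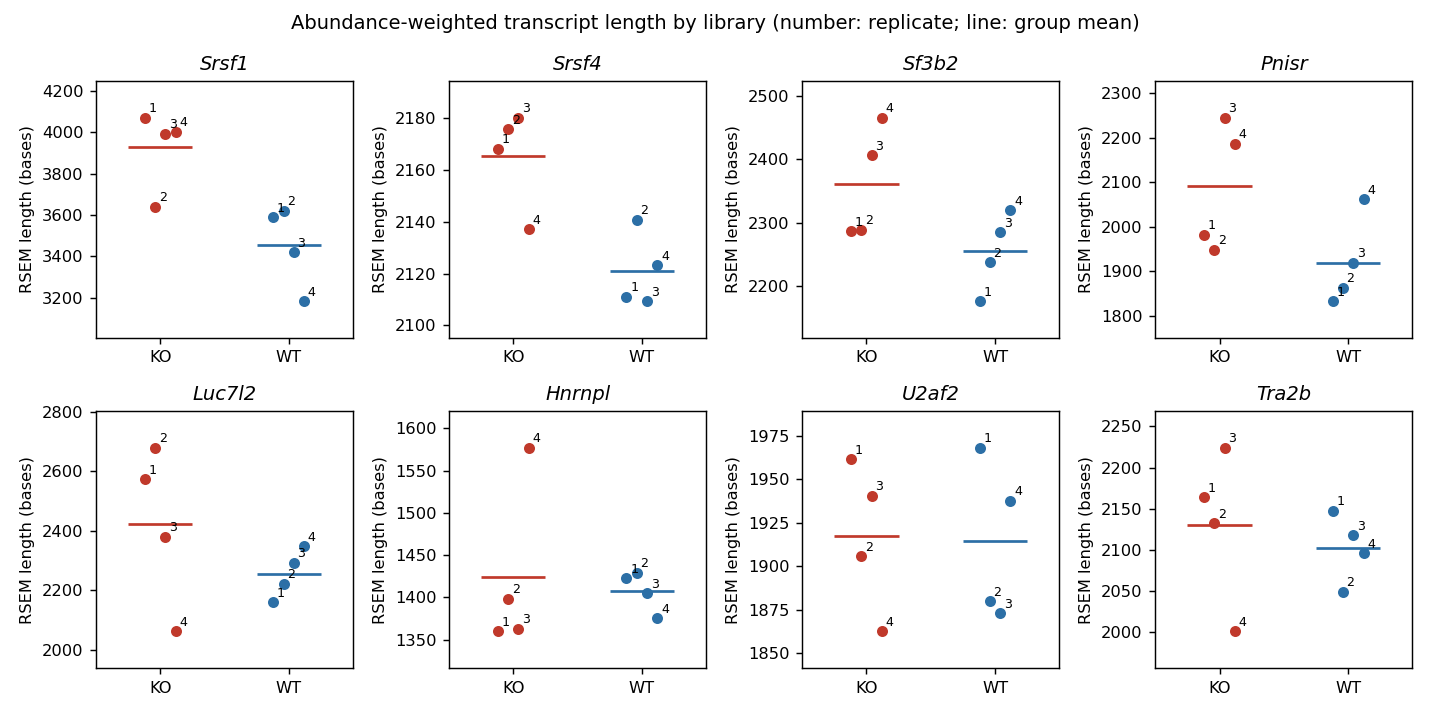
Abundance-weighted transcript length from RSEM, in bases (axes do not start at 0), for the 4 genes with the smallest p between KO and WT (top row) and the 4 with the smallest p against TEC share (bottom row), KO in red left of WT in blue, with library numbers and lines at group means. Srsf1 is longer in all 4 KO libraries (3641 to 4071 bases) than in the WT libraries (3184 to 3622 bases), and Luc7l2 is shortest in KO4.

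Against the TEC share no length was called (0% of 10419 genes, where 6.48% had an unadjusted p under 0.05, among them 3 of the 40). Estimates were above 0 for 24 of the 40 and for 52.7% of all genes. Without KO4 they were above 0 for 12 of the 40 and 46.0% of all genes, and without KO4 and WT4 for 18 of the 40 and 49.2% of all genes. The 3 at an unadjusted p under 0.05 became 0 without KO4 and 8 without WT4. Hnrnpl had 1360.0, 1399, 1363 and 1577 bases in KO1 to KO4, against 1423, 1429, 1405 and 1376 bases in WT1 to WT4. KO4 stood far above the rest, and the slope was 0.087 (95% interval 0.038 to 0.14) on the log2 scale for each 0.1 percentage point (limma adjusted p 0.477). Without KO4 and WT4 it was -0.029. Luc7l2 had 2574, 2679, 2380.5 and 2062 bases in KO1 to KO4, against 2159, 2222, 2292 and 2349 bases in WT1 to WT4. The library with the highest TEC share and Luc7l2 level, KO4, had the shortest mean transcript, and KO1 and KO2 had the longest. Its slope was -0.13 (95% interval -0.23 to -0.027) with an adjusted p of 0.6997 (limma), and 0.080 without KO4 and WT4. U2af2, at 1962, 1906, 1940.5 and 1863 bases in KO1 to KO4, against 1968, 1880.1, 1873 and 1938 bases in WT1 to WT4, had a slope of -0.034 (95% interval -0.067 to -0.00082). Tra2b, at 2164, 2133, 2224 and 2002 bases in KO1 to KO4, against 2148, 2049.6, 2118 and 2096 bases in WT1 to WT4, had a slope of -0.048 (95% interval -0.10 to 0.0016) and was shortest in KO4.

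Other genes of the splicing machinery were set beside the 40. None was called between KO and WT in any list. Over all genes tested 51.7% of estimates were higher in KO. Of 52 other spliceosome subunits, 39 (75%) had higher estimates in KO and 13 lower (median log2 fold change 0.050). The 39 became 33 without KO2, 33 without KO3 and 44 without KO4. The shares of all genes were then 51.1%, 52.1% and 50.6%. Dhx16, a spliceosomal helicase, averaged 66.7 ± 5.33 CPM in KO and 78.6 ± 7.36 CPM in WT (SD, n = 4 each, as for the genes that follow), and Cdc5l, of the PRP19 complex, averaged 147 ± 10.6 CPM in KO and 126 ± 15.8 CPM in WT. Of 37 other regulators and SR kinases, 14 had higher estimates (median -0.014). Taf15, an RNA-binding protein, averaged 28.7 ± 2.41 CPM in KO and 35.3 ± 7.28 CPM in WT, with WT2 the highest library. Of 9 minor spliceosome genes 6 were higher (median 0.086), with Snrnp25 at 65.5 ± 7.53 CPM in KO and 55.3 ± 6.07 CPM in WT, and Zrsr1, a relative of U2af1, at 6.06 ± 0.476 CPM in KO and 4.73 ± 0.881 CPM in WT. Of 17 genes of nonsense-mediated decay and the exon junction complex 7 were higher (median -0.033), and Smg5 averaged 62.5 ± 12.7 CPM in KO and 80.1 ± 22.3 CPM in WT and the kinase gene Smg1 98.9 ± 17.0 CPM in KO and 114 ± 10.2 CPM in WT. Of 5 nuclear-retained noncoding RNAs tested 2 were higher (median -0.026), with Neat1 at 98.3 ± 19.4 CPM in KO and 119 ± 10.2 CPM in WT and Firre at 30.1 ± 6.09 CPM in KO and 26.8 ± 1.51 CPM in WT. Against the TEC share, estimates were above 0 for 14 of the 52 spliceosome subunits and for 27 of the 37 other regulators. The share among all genes not typed TEC was 44.8%, and none of the 52 or 37 passed. Without KO4 these counts were 26 of the 52 and 25 of the 37, against 50.4% of those genes.

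Of the 40 genes, 13 share exonic bases with another annotated gene. The largest shares after Srsf4 were those of Srsf2 with Mettl23 (15.6%) and Mfsd11 (9.74%), both on the opposite strand, and of Hnrnpm with March2 (14.7%) on the same strand. Without strand, reads from opposite-strand partners cannot be told apart over those bases. Over bases shared on the same strand, knowing the strand would not part them either. Values of these genes are uncertain to that extent. The share in the counts relative to that in the RSEM estimates ran from 0.338 for Srsf4 to 1.34 for Clk2 and Srsf9, with 0.734 for Srsf2.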

How the data were processed

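Whole-number read counts per gene were deposited by the authors as 1 table a library, made with featureCounts 1.6.4 per the file headers, whose annotation path names GRCm39. They also deposited RSEM expected counts, TPM and an abundance-weighted transcript length per gene; the submitters' processing notes name RSEM 1.3.1, STAR 2.6.0a, Picard 2.19 and build mm10. Per the labels' protocols, libraries were made from total RNA with a kit for low input, which does not mark strand.

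Symbols were matched for 52093 of 53647 identifiers through the reference's gene name table, and gene types, transcripts and intron starts came from GENCODE M21 (GRCm38). Groups came from titles and genotype labels. Counts were fitted in edgeR 4.0.16 (R 4.3.3) with filterByExpr, TMM, the quasi-likelihood F test and Benjamini-Hochberg adjustment over all genes, threshold 0.05. Intervals are 95%. The same fit was made without KO4 and WT4, and with group and TEC share as terms. Lengths were tested on log2 with limma 3.58.1 over genes with an expected count of at least 10 in every library and a length varying by more than 1 base. Single values used two-sided exact permutation tests over 70 assignments. CPM values are TMM-scaled. Errors are SD unless named.

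Values by library are given, per role group, for the 2 genes with the smallest p between KO and WT. They are also given for the 2 with the smallest p against TEC share and for the highest CPM of each role group. The same holds for any gene called and for the 4 smallest p in each length test. Of each other list, group means are given for the 2 genes with the smallest p between KO and WT. The 40 genes, the lists and the tests were chosen with earlier results of these data known.

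Alternatives were DESeq2 1.42.0, limma-voom with quality weights, library size alone or RLE factors, rounded RSEM expected counts, no filter or a mean CPM of at least 1, protein-coding genes alone, TEC share or Xist as covariate, an expected count of at least 50, the replicate number as a block, and each library left out. The alternatives of the fit on 6 libraries, the counts of other lists with a library left out and the erythroid marker fit were chosen after seeing the data. The steps were tested on simulated data. Depth ran from 31109744 to 73414626 counts per library, and reads without molecular identifiers are not independent molecules. A gene that the naming rule picks from the list of other splicing regulators is not reported here.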

Additional observations from a re-analysis of the deposited data

Results flagged for a closer look

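In 8 of 100 groups of 4 values examined, 1 library lay far from the other 3. Chance would give about 1 in 20 if the groups were independent. They come from the same 8 libraries and are not, so the count was not read as an excess. KO4 accounted for 4 of the 8. Luc7l2 was at 127.5 CPM in KO4 and no higher than 66.9 CPM in KO1 to KO3, and Rbm39 was at 1003 CPM there and at most 756 CPM in the others. The TEC share of KO4 was 0.3075%, against 0.126% or less in KO1 to KO3. Trerf1 was at 22.14 CPM in KO4, against 13.4 CPM or less in KO1 to KO3. In WT4, Srsf5 stood at 808.6 CPM and Srsf7 at 1166 CPM, above the other WT libraries at no more than 667 and 964 CPM. Srsf9 was at 10.19 CPM in WT2, below 13.5 CPM in the next lowest WT library. Clk4 was at 157.4 CPM in KO3, below 173 CPM in the next lowest KO library. The cause of these gaps was not tested.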

How the results depend on the processing

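Between KO and WT 0 genes were called with every tool run on 8 libraries, with 322 genes at an unadjusted p under 0.05 by edgeR, 565 by DESeq2 and 891 by limma-voom, and 12 were called without KO4 and WT4, where Trerf1 reached a log2 fold change of -1.205. On those 6 libraries 231 genes were called with DESeq2, 53 with the replicate number as a block, 1 with RSEM expected counts and 0 with TEC share as covariate, and 0 to 4 with a further library left out. There 1 splicing gene, Luc7l2, was called with DESeq2 and 1, again Luc7l2, with the block (-0.57, adjusted p 0.0471), and across the 6 libraries left out in turn its log2 fold change was -0.63 to -0.50. Against TEC share 28 genes were called, and 138 with DESeq2, 48 with library size alone, 9 with RSEM expected counts, 1 with protein-coding genes alone, 0 without KO4 and WT4, and 0 to 25 with each library left out. Luc7l2 lost that call with protein-coding genes alone (0.51, adjusted p 0.103) and without KO4 and WT4 (0.30, adjusted p 0.789), so 0 of the 40 were called in both, and 0 to 1 with each library left out (its slope 0.29 to 0.53). The 1 length called between KO and WT became 0 with a minimum of 50 expected counts, 0 with the block, 3 without KO4 and WT4 and 0 to 1 with each library left out; against TEC share 0 to 3 lengths were called then. Over the libraries left out, the KO minus WT difference in TEC share was -0.083 to -0.015 percentage points. Estimates near 0 changed sign. Between KO and WT, Clk2 was -0.0059 with library size alone (-0.097 to 0.14 with each library left out). Clk1 was -0.00058 with RLE factors, -0.019 with RSEM expected counts, -0.023 with library size alone, -0.015 with limma-voom, -0.0051 with a mean CPM of at least 1, -0.0098 with no filter, -0.0086 with protein-coding genes alone, -0.077 without KO4 and WT4, and -0.11 to 0.087 with each library left out. The same ranges were -0.040 to 0.14 for Rbm39, -0.0041 to 0.092 for Ddx5 and -0.10 to 0.0020 for Hnrnpa2b1. Against TEC share, the block gave -0.0042 for Srsf5, -0.019 for Ddx5 and -0.013 for Sf3b1; RSEM expected counts gave 0.0077 for Ddx17; and leaving out KO4 and WT4 gave -0.14 for Clk1 and -0.063 for Ddx5. With each library left out these slopes were -0.21 to 0.16 for Srsf5, -0.067 to 0.23 for Rbm39, -0.16 to 0.21 for Clk1, -0.13 to 0.069 for Ddx5, -0.13 to 0.12 for Snrnp70 and -0.096 to 0.11 for Sf3b1. Length slopes without KO4 and WT4 were 0.080 for Luc7l2, -0.029 for Hnrnpl and 0.0067 for Tra2b (-0.060 to 0.0073 with each library left out). Libraries of one number did not all deviate together: correlations of their deviations were 0.362, 0.309, -0.0315 and 0.119. Those of KO1 with WT1 and KO2 with WT2 were the highest of any KO with any WT library. KO3 correlated best with WT4 (0.2045) and KO4 with WT3 (0.1586). As this match did not extend to all 4 numbers, they were not taken as pairs. With the block 634 genes had an unadjusted p under 0.05 over 8 libraries by edgeR, and it changed no other call of a splicing gene. The 4 libraries per group limit all intervals.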

Other observations

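U2af1 lay lower in libraries with more erythroid marker RNA, a pattern noticed in its values and then fitted on the same 8 libraries. In an edgeR quasi-likelihood fit with the group and the log2 of the summed CPM of 8 erythroid markers, added after seeing the data, U2af1 had a slope of -0.19 ± 0.036 (SE) on the log2 scale for each log2 unit of that sum. Its adjusted p of 0.0839 did not pass. It gave 152, 204, 207 and 217 CPM in KO1 to KO4, against 127, 137, 181 and 217 CPM in WT1 to WT4. An unadjusted p under 0.05 was found for 7 of the 40 splicing genes, against 10.01% of all genes tested, and none of the 40 was called. After U2af1, Luc7l and Srsf2 had the smallest p of the 40, with edgeR adjusted p of 0.249 and 0.295. Of 16352 genes, 56 were called (0.342%), 51 rising and 5 falling with the markers. Without WT1, the library with the highest sum, 4 genes were called (0.0239%), and the slope of U2af1 was -0.20 with an adjusted p of 0.361. Whether the erythroid share of the cells sets the level of U2af1 was not tested.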
